A study of Rattus norvegicus with 10 samples.

Results

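Glutathione transferases and the enzymes that make, recycle and accompany glutathione were read in the penis of control and diabetic rats. The tissue is described as cavernosal, the erectile tissue, while the source label of each sample names only the penis. The genes were Gsta1, Gsta4, Gstm1, Gstm2, Gstp1, Gstt1, Gclc, Gclm, Gsr and Nqo1, chosen by name, and every probe set whose platform annotation gives one of them as its only gene was taken. This gave 11 probe sets for 10 genes, of 10411 genes named on the array, with 2 probe sets for Gclc and 1 for each other gene. Total RNA had been hybridised to Affymetrix RAE230A arrays, with an array for each sample. The labels name 5 controls of the inbred strain F344 and 5 diabetic F344 rats at 10 week, whose diabetes was induced by streptozotocin, which kills the beta cells of the pancreas. The labels used here give no age, blood glucose or control timing, and they do not say whether each sample is 1 animal. The spread behind every p-value is therefore that among these 10 samples, and it may be partly technical. The samples are numbered control 1 to 5 and diabetic 1 to 5 in order of deposit, and the numbers pair nothing.

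Glutathione transferases join the thiol of glutathione to reactive compounds, among them the aldehydes that form when membrane lipids are oxidised. Glutathione itself is made in sequential steps of which glutamate-cysteine ligase catalyses the first, and its oxidised form is returned to the reduced form by glutathione reductase. The transcription factor NRF2, encoded by Nfe2l2, is held down by KEAP1, and when released by oxidants or electrophiles it drives genes of this kind through antioxidant response elements in their DNA. Oxidative stress of cavernosal tissue has been widely discussed in diabetic erectile dysfunction.

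The antioxidant response element has the core letters TGACNNNGC, and the promoters of 8 of the 10 genes were found in the RefSeq table. Each was read from 250 bases before to 50 bases after the start used there, in build GRCr8. That start is not always the outer end of the annotated gene. For Gstp1 the whole window lies inside the gene, which spans 210767237 to 210770242 on chromosome 1. The core was present on either strand in 3 of these 8, those of Gstp1, Gclm and Gsta1, against 12.1% of 33469 rat promoters of the same length. The 3 are shown because they alone of the 8 hold the core, which is in capitals.
Gstp1 promoter (chr1:210769656-210769955, minus strand): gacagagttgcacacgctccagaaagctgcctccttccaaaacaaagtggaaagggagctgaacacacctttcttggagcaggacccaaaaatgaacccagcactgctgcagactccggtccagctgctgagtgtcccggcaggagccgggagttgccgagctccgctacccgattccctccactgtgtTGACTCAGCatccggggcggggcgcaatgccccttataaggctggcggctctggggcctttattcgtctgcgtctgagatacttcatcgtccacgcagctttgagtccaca
Gclm promoter (chr2:213031885-213032184, plus strand): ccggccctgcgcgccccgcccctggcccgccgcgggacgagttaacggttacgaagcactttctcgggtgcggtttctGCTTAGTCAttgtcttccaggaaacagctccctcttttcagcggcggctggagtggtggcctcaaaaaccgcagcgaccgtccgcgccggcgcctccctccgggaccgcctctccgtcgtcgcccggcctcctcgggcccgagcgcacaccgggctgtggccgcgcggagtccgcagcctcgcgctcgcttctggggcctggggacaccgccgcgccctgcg
Gsta1 promoter (chr9:31216483-31216782, minus strand): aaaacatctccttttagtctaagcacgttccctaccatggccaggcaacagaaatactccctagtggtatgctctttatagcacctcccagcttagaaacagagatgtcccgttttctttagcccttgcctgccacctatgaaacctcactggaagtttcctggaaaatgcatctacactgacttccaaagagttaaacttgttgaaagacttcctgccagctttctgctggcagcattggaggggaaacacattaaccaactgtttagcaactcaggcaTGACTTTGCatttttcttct
In Gstp1 the match began 61 bases before the start used for the window. Its first letters are also the AP-1 motif TGACTCA, which 4.63% of all promoters hold on either strand. In Gclm the core lay on the opposite strand and in Gsta1 it lay after the start used for the window. No match in the other 5 windows says only that these letters are not in those bases, and a match is a description of the sequence.

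The deposited values are linear intensities, and changes are given on the scale of log2(intensity + 16), which understates changes of dim probe sets. Testing required 5 or more arrays above an intensity of 85.9, which is the table's 40th percentile, and 10 of the 11 passed; Gstt1 did not. The comparison of the groups used limma over all 9683 probe sets tested, with Benjamini-Hochberg adjustment and a threshold of 0.05. None of the 10 tested probe sets passed, against 0.423% of all probe sets tested (41, the smallest adjusted p being 0.0108). At an unadjusted p under 0.05 there were 6 of 10, all 6 higher in diabetic tissue, where 17.5% of all probe sets lay under 0.05 in either direction and 10.1% were higher. They belonged to Gstm2, Nqo1, Gstp1, Gsr, Gsta4 and Gsta1. Of these, Gsr passed the filter mainly through diabetic arrays, as given below. The other 4, of Gstm1, Gclm and both Gclc probe sets, had unadjusted p between 0.106 and 0.979. Since the genes were chosen with earlier results of these data known, their median difference of 0.40, beside 0.05 over all probe sets tested, is a description only.

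Among single arrays left out, the lack of calls turned on control 5. This array had the highest epithelial level of the controls, 9.68 on the marker list described below. Without control 5 limma called 3 of the 10, against 11% of all probe sets, and they were Gstm2 (0.99 ± 0.19 SE, adjusted p = 0.0154), Gsr (0.96 ± 0.24, adjusted p = 0.0334) and Gsta4 (0.91 ± 0.23, adjusted p = 0.0367). Array weights, which gave control 5 a weight of 0.196 and control 3 one of 0.369, called 5 of the 10, against 29.1% of all probe sets, by adding Nqo1 (adjusted p = 0.0333) and Gstp1 (adjusted p = 0.0387). With any other single array left out 0 of the 10 were called.

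**Figure D1:**
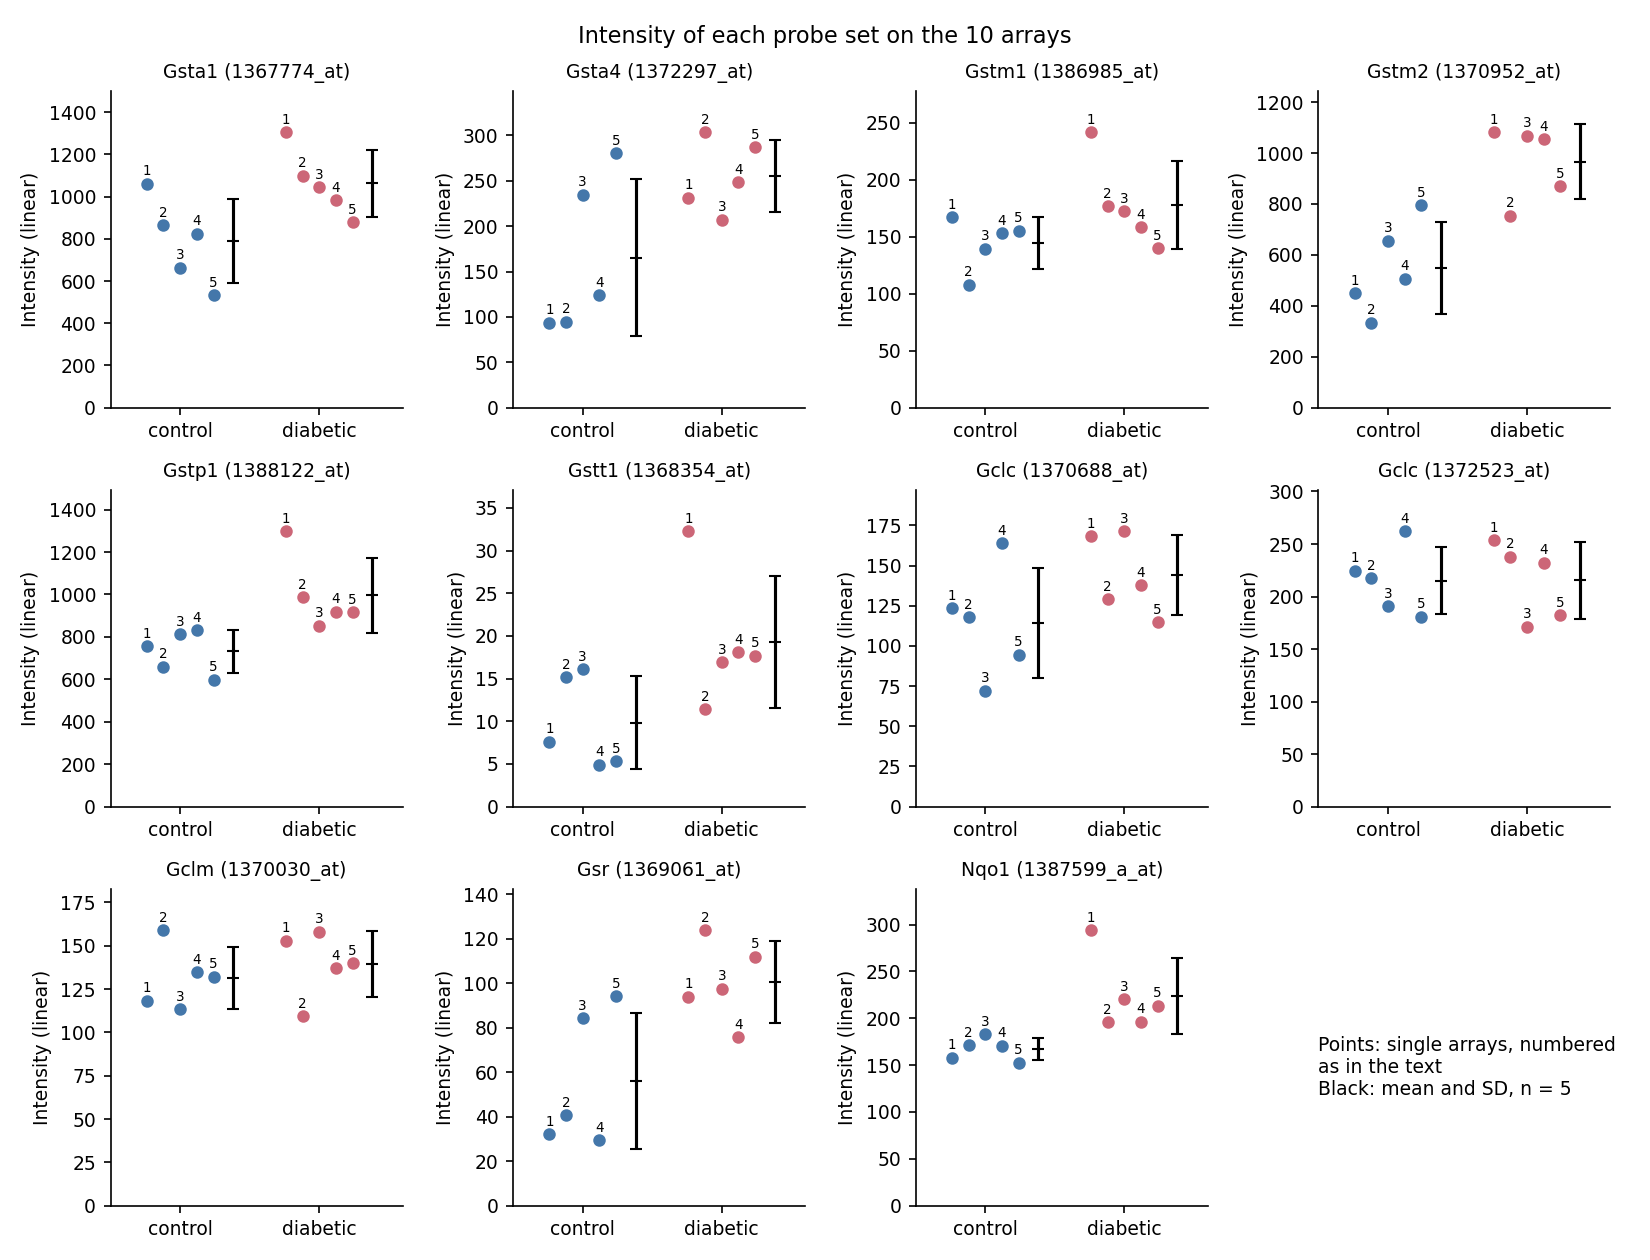
Linear intensity of each of the 11 probe sets on each array (points, numbered as in the text; blue control, red diabetic), with the group mean and SD (n = 5) in black and axes starting at 0. The 5 diabetic points lie above all 5 control points for Gstp1 and Nqo1, while Gsta4 and Gsr have control 3 and control 5 at the level of the diabetic arrays.

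Among the transferases, Gstp1, the pi class enzyme, was bright, and its groups did not overlap. Its intensities (probe set 1388122_at) were 755.7, 660.1, 812.1, 830.3 and 598.3 in controls 1 to 5, and 1299.8, 987.6, 853.1, 919.1 and 917.2 in diabetics 1 to 5. Every diabetic array lay above every control array, by a narrow margin between control 4 and diabetic 3, and diabetic 1 stood well above the rest. The means were 731.3 ± 99.6 and 995.4 ± 177 (SD, n = 5 per group), a log2 difference of 0.43 ± 0.14 (SE; limma adjusted p = 0.179), with a 95% interval of the fold from 1.09 to 1.67.

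Nqo1, the quinone reductase that spends NADPH or NADH to reduce quinones and is a classical NRF2 target, showed the same order of the groups at a lower intensity. The control arrays read 157.9, 171.3, 182.8, 170.9 and 152.6 (probe set 1387599_a_at), a tight set whose highest was 1.20 times its lowest. The diabetic arrays read 294.3, 195.5, 220.5, 196.3 and 213.4, all above the highest control, and again with diabetic 1 on its own at the top. The log2 difference was 0.38 ± 0.12 (adjusted p = 0.159), and the 95% interval of the fold ran from 1.09 to 1.55. Without diabetic 1 it was 0.28. Gstp1 and Nqo1 were the 2 of 10 tested probe sets whose groups did not overlap, both with diabetic arrays above, against 3.89% of all probe sets tested in either direction and 2.36% with diabetic arrays above.

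Gstm2, a mu class transferase, had the largest difference of the tested probe sets and the smallest p. Its intensities (1370952_at) were 449.4, 333.8, 655.8, 506.1 and 796.2 in controls and 1083.3, 754.8, 1068.6, 1054.2 and 871.3 in diabetics. The groups overlapped through a single pair, control 5 above diabetic 2, and 4 diabetic arrays lay above every control. The means of 548.3 ± 181 and 966.4 ± 146 gave a log2 difference of 0.85 ± 0.21 (adjusted p = 0.0960), with a 95% interval of the fold from 1.30 to 2.49.

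Gstm1, the neighbouring mu class gene on the list, read 167.3, 107.9, 139.3, 153.2 and 155.1 in controls and 241.8, 176.8, 172.4, 158.0 and 139.8 in diabetics (1386985_at). Diabetic 5 lay below 3 of the controls, so the groups overlapped broadly. The difference was 0.26 ± 0.15 (adjusted p = 0.369), with a 95% interval from -0.07 to 0.59. Mu class genes are alike in sequence, and how far each probe set reads its relatives was not tested.

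Gsta1, an alpha class transferase, was bright in both groups, at 1062.4, 864.3, 664.1, 824.3 and 534.5 in controls and 1307.2, 1100.2, 1046.6, 984.7 and 878.2 in diabetics (1367774_at). All but control 1 lay below the lowest diabetic array. The means were 789.9 ± 201 and 1063 ± 159, and the log2 difference was 0.45 ± 0.18 (adjusted p = 0.247). RefSeq lists Gsta3 and Gsta5 among the older names of this gene, and a rat alpha class probe set may read more than one of these close relatives. The probe set annotated to both Gsta5 and Gsta2 was below the filter, at 9.1 to 62.0 in controls and 31.3 to 41.8 in diabetics.

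Gsta4, the alpha class enzyme best known for clearing 4-hydroxynonenal, an aldehyde of lipid oxidation, differed in a way that rested on 3 controls. The controls read 93.6, 94.7, 234.9, 123.9 and 280.5 and the diabetics 231.4, 304.0, 207.1, 248.4 and 287.3 (1372297_at). Controls 1, 2 and 4 lay below every diabetic array, whereas controls 3 and 5 lay among them. The log2 difference was 0.70 ± 0.28 (adjusted p = 0.245), and the control arrays had an SD of 0.67 on the log2 scale, against 0.21 in the diabetic arrays. Gstt1, a theta class transferase, read 4.9 to 16.1 in controls and 11.4 to 32.3 in diabetics (1368354_at), far under the filter of 85.9. It was not tested, and without detection calls these values cannot be told from background.

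The enzymes that make and recycle glutathione gave unlike values. Gsr, glutathione reductase, read 32.2, 40.6, 84.2, 29.5 and 94.2 in controls and 93.9, 124.0, 97.5, 75.7 and 111.9 in diabetics (1369061_at). As for Gsta4, controls 1, 2 and 4 lay well below the diabetic arrays and controls 3 and 5 among them. The means were 56.1 ± 30.7 and 100.6 ± 18.4, a log2 difference of 0.78 ± 0.26 (adjusted p = 0.188). The probe set lay near the filter, with controls 1 to 4 and diabetic 4 under 85.9. It was tested only because control 5 and diabetics 1, 2, 3 and 5 exceeded that value. Its place among the tested probe sets thus depended on the group in which it was high.

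Gclc, the catalytic subunit of glutamate-cysteine ligase, gave different answers by its 2 probe sets. The brighter one (1372523_at) read 224.7, 217.3, 191.1, 262.5 and 180.7 in controls and 253.4, 237.8, 171.2, 232.2 and 182.0 in diabetics. These are interleaved, with a log2 difference of -0.0037 ± 0.13 (adjusted p = 0.990) and a 95% interval of the fold from 0.812 to 1.22. The dimmer one (1370688_at) read 123.4, 117.9, 72.2, 163.8 and 94.6 against 168.2, 129.0, 171.6, 137.8 and 114.9, a difference of 0.32 ± 0.18 (adjusted p = 0.369) with overlapping groups. It stood at 0.19 without control 3, the lowest array.

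Gclm, the modifier subunit that raises the ligase's affinity for glutamate, read 118.3, 159.2, 113.4, 134.8 and 132.1 in controls and 152.9, 109.3, 158.1, 137.2 and 139.8 in diabetics (1370030_at). The lowest value of all was a diabetic array and the highest a control. The difference was 0.07 ± 0.12 (adjusted p = 0.761), with a 95% interval of the fold from 0.877 to 1.26. The Gclm promoter printed above holds the antioxidant response element core, as does that of Gstp1.

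Diabetic 1 was the highest of the 10 arrays for 5 of the 10 tested probe sets, those of Gsta1, Gstm1, Gstm2, Gstp1 and Nqo1, whereas it was the highest for 9.41% of all probe sets tested. Control 5 was the lowest for Gsta1, Gstp1 and Nqo1, 3 of 10, against 21.3% of all. Both counts were taken after the values were seen. Leaving out diabetic 1 lowered Gsta1 from 0.45 to 0.37, Gstp1 from 0.43 to 0.33 and Gstm1 from 0.26 to 0.15, and changed none of their directions.

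The level of epithelial markers differed between the samples and moved with some of these genes. The epithelial marker list of keratins, claudins and junction genes averaged 6.01, 5.995, 9.17, 7.68 and 9.68 in controls 1 to 5 and 8.70 to 9.72 in the diabetic arrays (mean log2 of the 17 genes tested of 26 listed). All 17 read higher in diabetic tissue, 12 of them at an unadjusted p under 0.05 and 0 by adjusted p. In control 1 only 5 of the 17 exceeded the filter intensity and in control 2 only 3, against 14 in control 4 and 16 or 17 on every other array, and none was at 0. The secretory gland list ran the same way, at 6.88, 7.89, 10.12, 9.16 and 10.73 in controls and 9.93 to 10.48 in diabetics over 7 tested genes, with 6 of 7 higher and 0 called, and its part in the values below was not tested. In bulk tissue fewer cells of a type and less RNA per cell cannot be told apart.

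With the epithelial list as a covariate, some differences were smaller, some near their former value and some larger. Gsta4 went from 0.70 to 0.13 ± 0.17 (adjusted p = 0.799), Gsr from 0.78 to 0.30 ± 0.21 (adjusted p = 0.562) and Gstm2 from 0.85 to 0.47 ± 0.17 (adjusted p = 0.275). Gstp1 stood at 0.44 ± 0.17 (adjusted p = 0.296) and Nqo1 at 0.36 ± 0.14 (adjusted p = 0.317), close to their values without it, while Gsta1 stood higher at 0.72 ± 0.16 (adjusted p = 0.111) and so did the dimmer Gclc probe set, at 0.50 ± 0.21 (adjusted p = 0.351). Without controls 1, 2 and 4 the differences were, for Gsta4, -0.02 ± 0.16, for Gsr 0.14 ± 0.18, for Gstm2 0.40 ± 0.17, for Nqo1 0.38 ± 0.17, for Gstp1 0.49 ± 0.19, for the dimmer Gclc probe set 0.68 ± 0.18 and for Gsta1 0.81 ± 0.17. Both settings were chosen with earlier results known, and 0 of the 10 probe sets were called in either, with 5 at an unadjusted p under 0.05 in each, those of Gsta1, Gstm2, Gstp1, Nqo1 and the dimmer Gclc probe set, against 12.7% and 15.5% of all probe sets.

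**Figure D2:**
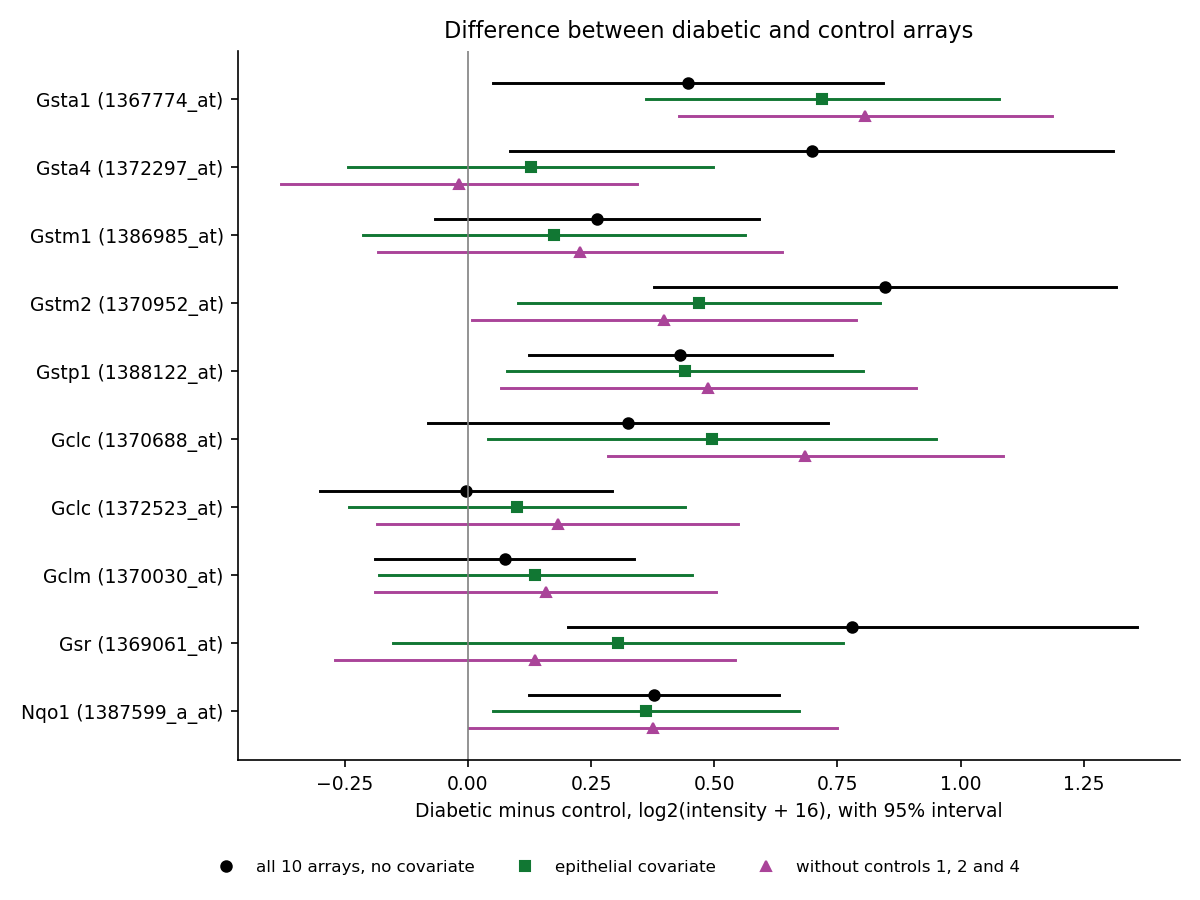
Log2 difference, diabetic minus control, of the 10 tested probe sets with 95% intervals from limma: all 10 arrays (black circles), with the epithelial list as a covariate (green squares) and without controls 1, 2 and 4 (purple triangles). Gsta4 goes from 0.70 to 0.13 and -0.02, while Nqo1 stays between 0.36 and 0.38.

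**Figure D3:**
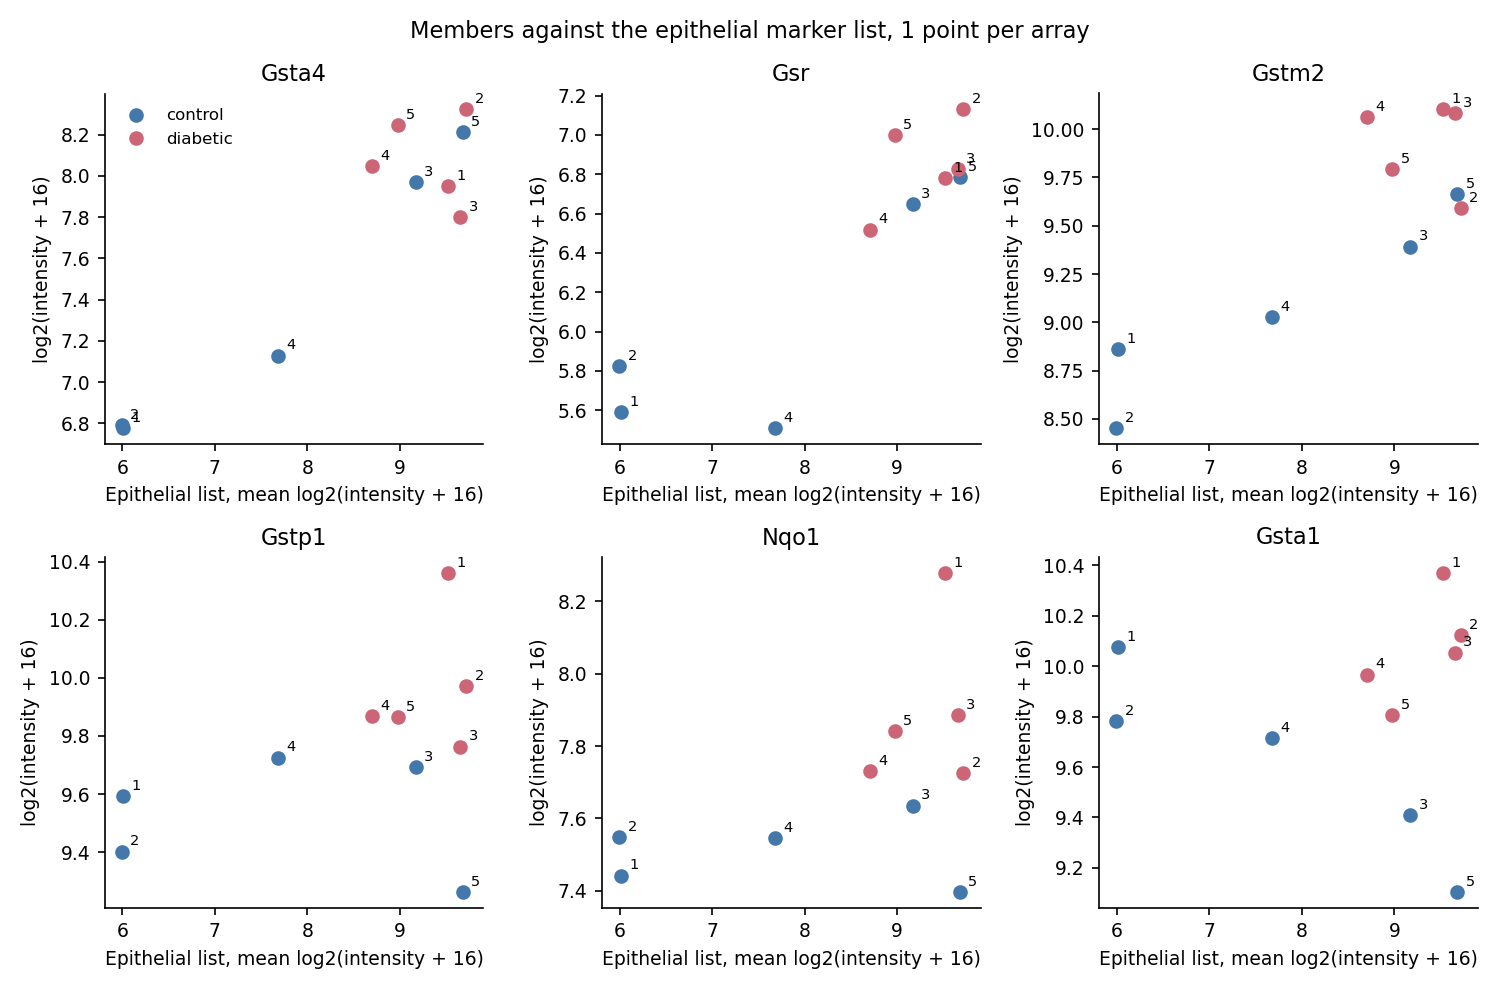
Log2(intensity + 16) of 6 genes against the mean log2 of the epithelial list, 1 point per array (blue control, red diabetic, numbered as in the text; axes do not start at 0). For Gsta4 and Gsr the control arrays with a low epithelial level, 1, 2 and 4, are also the lowest for the gene, while for Nqo1 and Gstp1 the diabetic arrays lie above control 3 and control 5 at a like epithelial level.

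Skeletal muscle markers read the other way, with 19 of 19 tested genes lower in diabetic tissue, 0 of them called, and list means of 11.61 to 12.14 in controls and 11.36 to 11.83 in diabetics. With this list as a covariate Nqo1 stood at 0.36 ± 0.17, Gstp1 at 0.40 ± 0.20, Gsta1 at 0.60 ± 0.25 and Gstm2 at 0.47 ± 0.26, while Gsta4 stood at 0.15 ± 0.33, Gsr at 0.33 ± 0.33 and Gstm1 at -0.0012 ± 0.19. In that fit 1 of the 10 probe sets, that of Gsta1, had an unadjusted p under 0.05, against 7.27% of all. Smooth muscle and endothelial markers exceeded the filter intensity for 10 of 10 genes on every array and for 8 or 9 of 9. Both lists averaged below that of skeletal muscle on every array. How much of each sample was erectile tissue was not tested. Smooth muscle stood at 9.56 to 10.07 in controls, lowest in controls 1 and 2, and at 9.85 to 10.18 in diabetics. Of its genes 8 were higher and 2 lower, with 4 and 1 at an unadjusted p under 0.05 and 0 called. The endothelial list averaged 7.58 to 8.24 and 7.99 to 8.26, with 8 of 9 higher and 0 called. The adipocyte list averaged 7.32 to 8.33 in controls and 8.34 to 8.90 in diabetics, with 2 of 6 tested genes called higher. Fibroblast markers averaged 10.08 to 11.07 and 9.67 to 10.24, with 10 of 10 lower and 0 called. The part of the smooth muscle, endothelial, adipocyte and fibroblast lists in the values above was not tested.

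Scan day and fluidics station were taken from the array records. With scan day as a block Gstp1 stood at 0.46, Nqo1 at 0.35, Gstm2 at 0.81 and Gsta1 at 0.45. In that fit 6 of the 10 probe sets had an unadjusted p under 0.05, against 11.6% of all. They were those of Gstp1, Gstm2, Nqo1, Gsr, Gsta4 and Gstm1, so Gstm1 was among them and Gsta1 was not. A block on station put the same genes at 0.36, 0.30, 0.74 and 0.43, Gsr at 1.10 and the dimmer Gclc probe set at 0.09, and 3 of the 10, those of Gsr, Gstm2 and Gsta4, had an unadjusted p under 0.05, against 15.3% of all. Within scan days 1, 2 and 3 the Gstp1 difference was 0.54, 0.64 and 0.32, that of Nqo1 0.30, 0.73 and 0.19, and that of Gstm2 0.33, 1.07 and 1.01. Within stations 1 and 2 they were 0.48 and 0.24 for Gstp1, 0.22 and 0.39 for Nqo1, and 0.50 and 0.98 for Gstm2. Gsta1 stood at 0.53, 0.66 and 0.29 within days and at 0.53 and 0.33 within stations. Gsta4 stood at 0.83, 0.82 and 0.76 within days and at 0.88 and 0.88 within stations, and Gsr at 0.94, 1.27 and 0.52 and at 0.92 and 1.27. All of these were positive, but only diabetic 2 shared station 1 with controls, only control 4 shared station 2 with diabetic arrays, and diabetic 3 was alone on day 4. Day 1 held controls 1 and 5 with diabetic 2, and day 3 held 2 arrays of each group. The day 2 values compare only control 4 with diabetic 1, the highest array for several of these genes. The sign for Gstp1 and Nqo1 follows from groups that do not overlap. The sign differed between days and between stations for Gclm and the brighter Gclc probe set, and between stations for the dimmer one.

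The genes most like each member over the 10 arrays were sought by Pearson correlation of log2 values, as a description over arrays that share the group difference and the epithelial difference. Gsta4 was followed most closely by Ceacam1, an adhesion molecule of epithelia and endothelia (r = 0.995), and by Fam171a1 (r = 0.987), and Gsr by Srsf9, a splicing factor (r = 0.973), and Atp6v1a, a proton pump subunit (r = 0.973). Gstm2 ran with Nop53 (r = 0.971) and Pan3 (r = 0.955). Gstp1 ran with Stard3, a cholesterol carrier of late endosomes (r = 0.956), and Kank3 (r = 0.945), and Gsta1 with Ctsl, the lysosomal protease cathepsin L (r = 0.957), and Zfp638 (r = 0.943). Nqo1 ran with Cnot9 (r = 0.956) and with Acadvl, the very long chain acyl-CoA dehydrogenase of fatty acid oxidation (r = 0.941), whose own difference was 0.56 ± 0.12 (adjusted p = 0.0682). Gstm1 ran with Sord, sorbitol dehydrogenase (r = 0.914), and Epha2 (r = 0.909). The brighter Gclc probe set ran with Nradd (r = 0.916) and Rabepk (r = 0.904), and Gclm with Rbm33 (r = 0.817) and Sart3 (r = 0.810).

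Among the remaining glutathione transferases of the array, 12 of 15 genes were tested and 0 were called, with 6 higher and 6 lower, a median of -0.01 and a range from -0.39 to 1.19. Mgst1, the microsomal transferase, had the largest difference. It read 280.0, 458.0, 676.3, 291.0 and 642.5 in controls and 1396.7, 1209.1, 1065.4, 750.2 and 827.4 in diabetics, so the groups did not overlap (1.19 ± 0.27, adjusted p = 0.0818). With the epithelial covariate Mgst1 stood at 0.75 ± 0.24 (adjusted p = 0.228). Mgst2 (0.99 ± 0.48, adjusted p = 0.307) and the theta class Gstt3 (0.94 ± 0.47, adjusted p = 0.323) were low in controls 1, 2 and 4 as Gsta4 was, with Mgst2 at 212.4, 256.5 and 382.9 there and at 1008.4 and 1430.1 in controls 3 and 5. With the epithelial covariate they stood at -0.06 and -0.11. Gstk1, the kappa class enzyme of mitochondria and peroxisomes, stood at 0.25 ± 0.13 (adjusted p = 0.336).

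The NRF2 system itself was read through 11 tested regulators of 16 listed, of which 0 were called, with a median of -0.01. Nfe2l2, which encodes NRF2, read 554.0, 535.8, 582.5, 594.3 and 562.0 in controls and 882.6, 656.4, 778.6, 594.9 and 634.1 in diabetics. The groups did not overlap, though diabetic 4 and control 4 were nearly level, and diabetic 1 was again the highest. The difference was 0.30 ± 0.12 (adjusted p = 0.233), and 0.24 ± 0.14 with the epithelial covariate. Ep300, a histone acetyltransferase that acts with NRF2, stood at 0.46 ± 0.18 (adjusted p = 0.235), the kinase Prkcd at 0.21 ± 0.10 (adjusted p = 0.324) and Cul3, the scaffold of the ligase that destroys NRF2, at -0.17 ± 0.11 (adjusted p = 0.426). Keap1, which was outside the rule for named genes and chosen after its values were seen, stood at 0.13 ± 0.10 (adjusted p = 0.473).

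Of 38 other NRF2 target enzymes and carriers 22 were tested, and 0 were called, with 15 higher, 7 lower and a median of 0.09. The 4 with the smallest p pointed both ways. Ephx1, microsomal epoxide hydrolase, read 289.8, 183.8, 597.3, 446.3 and 939.7 in controls and 839.9 to 1142.3 in diabetics (1.11 ± 0.35, adjusted p = 0.171), and Gpx2, an epithelial glutathione peroxidase, stood at 1.18 ± 0.43 (adjusted p = 0.216). With the epithelial covariate they stood at 0.36 ± 0.17 and 0.27 ± 0.24. Me1, the malic enzyme that supplies NADPH, was lower at -0.62 ± 0.18 (adjusted p = 0.138), and the carboxylesterase Ces1d at -0.63 ± 0.17 (adjusted p = 0.121). With the epithelial covariate Me1 stood at -0.26 ± 0.10 and Ces1d at -0.83 ± 0.18.

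Genes of glutathione synthesis, breakdown and use outside the members lay mostly lower, with 17 of 22 tested genes negative, a median of -0.15 and 0 called. Gpx7, a peroxidase of the endoplasmic reticulum, read 235.2, 228.2, 171.3, 210.9 and 136.6 in controls and 88.8 to 129.8 in diabetics, without overlap (-0.79 ± 0.15, adjusted p = 0.0577). Gpx7 passed after quantile normalization (adjusted p = 0.0436) and after median centring (adjusted p = 0.0471). Gpx4, the peroxidase that reduces lipid hydroperoxides in membranes, also had groups that did not overlap (-0.33 ± 0.10, adjusted p = 0.166), from 1913.2 to 2392.2 in controls and from 1527.8 to 1885.6 in diabetics. Adh5, which reduces S-nitrosoglutathione and oxidises the glutathione adduct of formaldehyde, stood at -0.26 ± 0.11 (adjusted p = 0.248), and Oplah, which returns 5-oxoproline to glutamate, at 0.56 ± 0.23 (adjusted p = 0.257). With the epithelial covariate Gpx7 stood at -0.50 ± 0.12 (adjusted p = 0.116) and Oplah at 0.14 ± 0.19. Gsto1 belongs to both this list and that of the transferases. Of the 16 genes named from these 4 lists, limma called 7 without control 5 (Gstk1, Mgst1, Mgst2, Me1, Ephx1, Gpx2 and Gpx7), with 0 called under the removal of any other single array. Without control 5 it called 11% of all probe sets. The 16 had been picked by their small p in these same data, so their count says nothing about the lists.

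**Figure D4:**
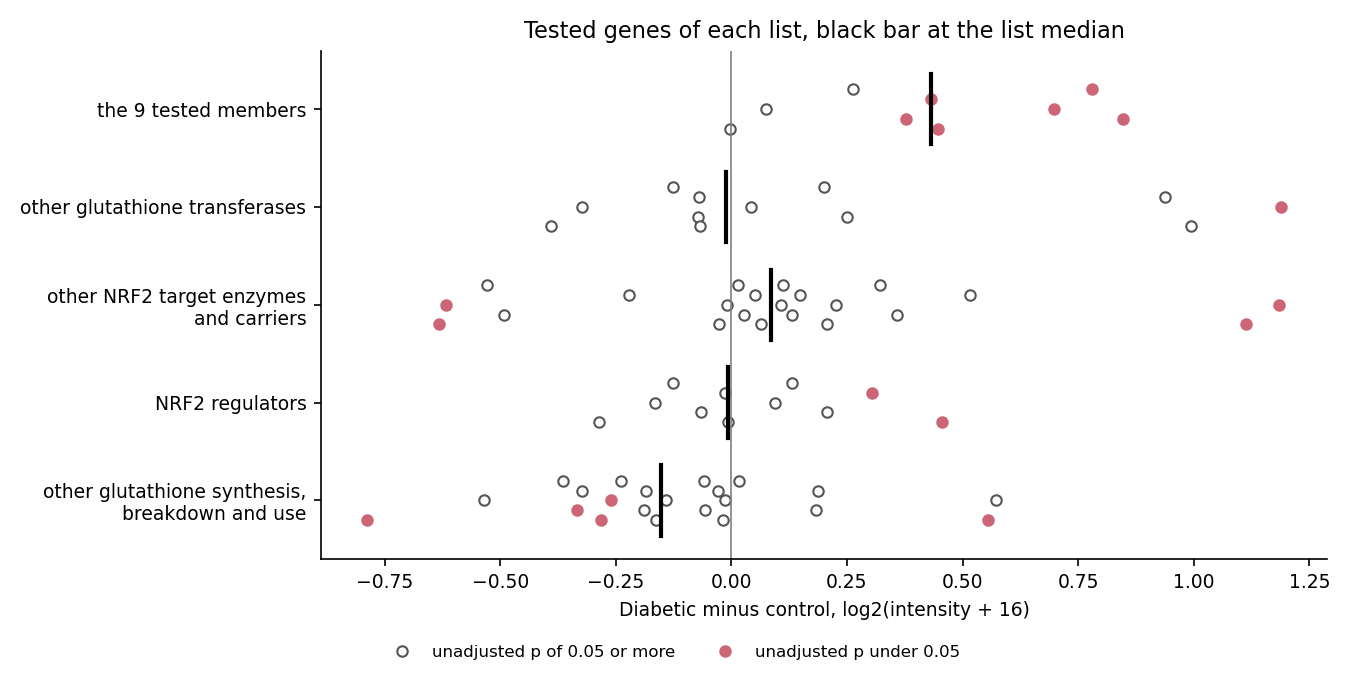
Log2 difference, diabetic minus control, of the tested genes of each list by their brightest probe set (points; filled where the unadjusted p was under 0.05), with the list median as a black bar. The medians are 0.43 for the 9 tested members, chosen with earlier results known, and -0.01, 0.09, -0.01 and -0.15 for the other 4 lists, and 0 genes of any list were called by adjusted p.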

How the data were processed

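Affymetrix RAE230A arrays measured total RNA of penis tissue, described as cavernosal, from 5 control and 5 diabetic rats. The deposited table, per its values, gives linear intensities by probe set, scaled by the authors so that the trimmed means of the arrays lie between 250.05 and 250.06; their software is not named in the sources used, and detection calls were not used. The array medians ran from 116.8 to 131.4, and precision is set by having 5 arrays a group. The table's 15923 rows include 57 control probe sets, which were dropped. The platform annotation named 1 gene for 12783 of the other 15866, several for 312 and none for 2771, and 12748 symbols were updated through the Entrez identifier against RefSeq.

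A floor of 1 was applied before taking log2(intensity + 16), with no further normalization, since array medians differed by at most 0.15. Group differences came from limma 3.58.1 under R 4.3.3 by lmFit and eBayes, allowing a trend with intensity. The two-sided p-values were adjusted by Benjamini and Hochberg's method over the 9683 probe sets tested; the fit was tested on simulated data. SE is limma's moderated standard error and 95% intervals are limma's. Outlying arrays were sought by Dixon's gap over range. Named genes were all members, the 4 genes with the smallest p of each pathway list, and the 2 most correlated genes of each member; each gene of a list was read by its brightest tested probe set. The members, lists, covariates and left-out sets were chosen with earlier results of these data known. Alternatives covered normalization, pseudocount, filter, scan day, station, trend, array weights, marker covariates and left-out arrays. Figures were drawn with matplotlib 3.10.9.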

Additional observations from a re-analysis of the deposited data

How the results depend on the processing

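The count of calls over all probe sets depended on the processing, and so did the size of some member differences. Against 41 calls by limma, a pseudocount of 1 gave 22, no filter 26, the epithelial covariate 22, array weights 2813 and the set without controls 1, 2 and 4 gave 21. Scan day as a block, station as a block, the skeletal muscle covariate and leaving out controls 1 and 2 each gave 0, with 1119, 1483, 704 and 773 probe sets at an unadjusted p under 0.05. With 1 array left out the count ran from 0 to 1068, the highest without control 5. Higher calls made up 51.2% of the 41, but 30.2% of 43 after median centring. Of the tested member probe sets, array weights called 5, leaving out 1 array called 0 to 3, and every other alternative 0. Quantile normalization and median centring each also left 2 member probe sets without overlap. The share over all probe sets is not given here for either setting, so these counts are a description only.

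Of the 16 pathway genes named, array weights called 11, against 29.1% of all probe sets tested. These genes had been picked by their small p in the same comparison, so that count is a description only. Over up to 24 alternatives the dimmer Gclc probe set ran from 0.087 to 0.68, Nqo1 ran from 0.28 to 0.42, Gstp1 from 0.33 to 0.49, Gsta1 from 0.28 to 0.81, Gstm2 from 0.40 to 1.10 and Gsr from 0.14 to 1.10, all positive. Differences near 0 changed sign. The brighter Gclc probe set stood at 0.063 with scan day as a block, 0.099 with the epithelial covariate, 0.027 without controls 1 and 2 and 0.18 without controls 1, 2 and 4. It ran from -0.062 to 0.069 with 1 array left out, at 0.013, 0.0022 and 0.066 without controls 1, 2 and 4 in turn and 0.069 and 0.049 without diabetics 3 and 5. Gclm stood at -0.0053 with quantile normalization, -0.0025 with median centring and -0.054 with station as a block. Gsta4 stood at -0.018 without controls 1, 2 and 4, and Gstm1 at -0.0012 with the skeletal muscle covariate. Gstt3 stood at -0.11, -0.15 and -0.33 under the epithelial covariate, the skeletal muscle one and the removal of controls 1, 2 and 4 in turn. Mgst2 stood at -0.062 with the epithelial covariate and -0.24 without those controls, and Gpx2 at -0.044 with the skeletal muscle covariate. The cause of these changes was not tested. No paired analysis was possible because the sample titles of the groups share only 1 number, between control 4 and diabetic 1.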

Other observations

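Of the NRF2 target list, 15 of 22 tested genes read higher, and 3 genes outside the naming rule were picked after their values were seen. Srxn1, sulfiredoxin, read 437.7, 527.7, 78.5, 602.8 and 210.0 in controls and 162.5 to 290.2 in diabetics (-0.53 ± 0.45, limma adjusted p = 0.542), so controls 1, 2 and 4 lay above every diabetic array and control 3 below all of them. Hmox1, heme oxygenase, read 340.4, 364.3, 113.5, 275.9 and 154.6 against 133.8 to 332.2 (-0.22 ± 0.33, adjusted p = 0.736), with control 3 again the lowest. Txnrd1, thioredoxin reductase, read 324.2 to 633.4 in controls and 398.5 to 602.3 in diabetics (0.06 ± 0.20, adjusted p = 0.881). In controls 1, 2 and 4, which had the lowest epithelial levels, Srxn1 and Txnrd1 were high where Gsta4 and Gsr were low.

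Dixon's gap over range marked 0 outlying arrays among 22 groups of 5 member values, where chance marks about 1 in 20.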
